A study of Mus musculus with 16 samples.

Results

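The genes described are the immunoglobulin genes of the mouse: the variable genes of the heavy, kappa and lambda chains, the constant genes that follow them, and Jchain. They were chosen by the first letters of their symbols and by their summed count over the 16 libraries, which had to reach 100. Of 50686 genes in the count table, 383 had a fitting symbol and 150 also reached 100 counts. One of the 150, Ighmbp2, encodes a helicase and only shares the letters, so 149 genes were described. They are 66 heavy chain variable genes (Ighv), 67 kappa variable genes (Igkv, among them Igkv3-8, annotated as a pseudogene), 3 lambda variable genes (Iglv), 8 heavy chain constant genes, Igkc, 3 lambda constant genes (Iglc) and Jchain. The choice used the level of each gene, and 1 library, vehicle 4, held 40.3% of the 1905934 immunoglobulin counts. Without that library 102 of the 136 variable genes would have reached 100 counts. Just inside the limit were Ighv2-9 with 100 counts, Igkv4-79 with 103 and Ighv1-58 with 104, and just outside it Ighv1-71 with 91, Ighv1-12 with 87 and Igkv9-124 with 86.

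RNA was sequenced from haematopoietic stem cells of C57BL/6J mice in 4 groups of 4 libraries, to compare drug treatments given to the animals over a long time. One group received palbociclib, an inhibitor of the cell cycle kinases CDK4 and CDK6, at 30.4 mg/kg; one received rapamycin, an inhibitor of the growth kinase complex mTORC1, at 6.4 mg/kg; one received both drugs at these doses; and one received the vehicle alone, 20% DMSO and 40% PEG 400 in PBS. All mice were injected into the peritoneum every 48 h for 85 days. Bone marrow was depleted of lineage-positive cells, stained for CD150, CD48, Sca-1 and CD117, and 10000 stem cells in G0/1 were sorted per library. Nothing in the labels ties the 4 libraries of a group to different mice, and the p-values below cover only the spread among libraries, part of which may be technical.

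A B lymphocyte makes its heavy chain gene by joining a variable, a diversity and a joining segment in front of the constant genes, and its light chain gene by joining a variable and a joining segment of the kappa or the lambda locus. All descendants of the cell keep the same joined genes, so a clone carries mostly 1 heavy and 1 light variable gene. The constant gene sets the isotype: IgM and IgD come first, and switching of the DNA replaces them by an IgG, IgA or IgE gene. Plasma cells, the antibody-secreting end stage, live in the bone marrow and carry very large amounts of this RNA, while stem cells have not rearranged these loci.

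The sequences that the results turn on are printed from the GENCODE M21 transcripts of build GRCm38, on the coding strand. The first pair are the ends of the coding exons of Ighv11-2 (ENSMUSG00000096108, minus strand, last 150 coding bases at chr12:114048241-114048390) and Igkv14-126 (ENSMUSG00000094345, plus strand, last 150 coding bases at chr6:67896493-67896642), the heavy and the kappa variable gene with the most counts over all libraries. Capitals run from the last cysteine codon in frame to the end of the exon, 11 and 26 bases that hold the cysteine anchor before the hypervariable loop (CDR-H3 or CDR-L3) and the germline bases that follow it.
Ighv11-2: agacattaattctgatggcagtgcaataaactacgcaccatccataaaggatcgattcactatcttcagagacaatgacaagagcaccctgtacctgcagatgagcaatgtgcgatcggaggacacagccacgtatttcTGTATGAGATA
Igkv14-126: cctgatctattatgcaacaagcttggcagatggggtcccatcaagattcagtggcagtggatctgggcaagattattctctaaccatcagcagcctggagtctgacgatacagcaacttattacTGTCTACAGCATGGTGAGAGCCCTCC

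The second pair are the alternative coding ends of Ighm (ENSMUSG00000076617, minus strand, chr12:113418558-113422730), shown because the secreted and the membrane form of IgM differ only there. The secreted tail of 62 bases lies at chr12:113420867-113420928, and the membrane tail of 125 bases spans an intron within chr12:113418826-113419068. Capitals mark the stop codon.
Ighm secreted tail: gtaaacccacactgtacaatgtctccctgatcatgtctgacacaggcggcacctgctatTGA
Ighm membrane tail: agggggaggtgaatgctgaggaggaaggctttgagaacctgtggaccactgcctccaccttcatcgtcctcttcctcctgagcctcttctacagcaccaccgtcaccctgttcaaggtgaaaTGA

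Total counts per library ran from 10133860 to 15328830, over 16570 to 20418 genes above 0. The RNA of the stem cell gate was present in all 16 libraries: Kit (CD117) had 127 to 587 CPM (counts scaled to a common library size) and Ly6a (Sca-1) had 90.3 to 1006 CPM. Slamf1 (CD150) had 14.1 to 60.4 CPM and Cd48, which the gate leaves out, 6.63 to 63.4 CPM. Summed CPM of 12 neutrophil granule genes, which stem cells make at low levels if at all, ran from 8948 to 108203, and 12 T and NK cell genes summed to 108 to 633 CPM. Vehicle 4 stood apart: its 12 mature B cell markers summed to 4195 CPM, against 79.4 to 569 CPM in the other 15 libraries. Values without that library are given beside the immunoglobulin group summaries and fold changes that it moves most. They are not given for the tests of the marker lists, where it also weighs on the vehicle mean.

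Immunoglobulin genes held between 0.00303% and 7.57% of all counts of a library. With palbociclib the 4 libraries had 1.07%, 0.0496%, 1.78% and 1.301% of their counts on these genes, a mean of 1.05% ± 0.729 (SD, n = 4). With rapamycin they had 0.00739%, 0.0896%, 0.211% and 0.0323%, a mean of 0.0850% ± 0.0906. With both drugs they had 0.454%, 0.00303%, 1.15% and 0.754%, a mean of 0.589% ± 0.482, and with the vehicle 0.336%, 0.716%, 1.66% and 7.57%, a mean of 2.57% ± 3.38. Without vehicle 4 the vehicle mean was 0.905%, below the palbociclib mean, and without rapamycin 3 the rapamycin mean was 0.0431%.

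All 4 rapamycin libraries were below all 4 vehicle libraries, with and without vehicle 4, while the palbociclib libraries and the libraries with both drugs overlapped the vehicle libraries. In the palbociclib group library 2, and in the group with both drugs library 2, lay far below the other 3. The counting error was small beside these gaps: the 95% Wilson interval of the lowest share, in library 2 with both drugs, was 0.00276% to 0.00333%, on 429 counts. In such bulk RNA, fewer immunoglobulin-producing cells and less of this RNA per cell cannot be told apart.

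**Figure D1:**
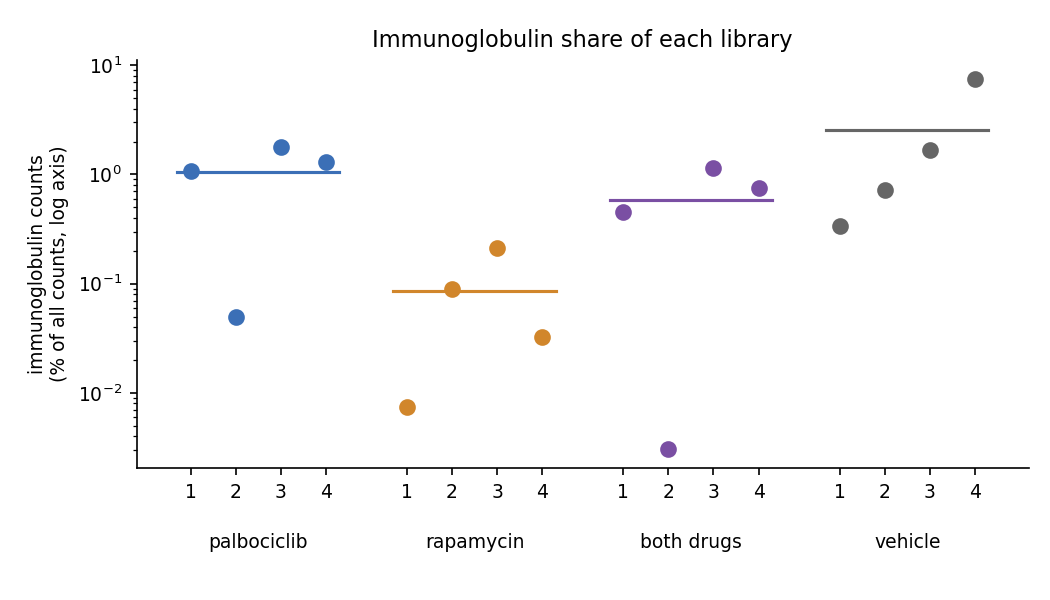
Share of all counts that fell on the 149 immunoglobulin genes, in percent on a log axis, for each of the 4 libraries per group; lines are group means. The 4 rapamycin libraries, at 0.00739% to 0.211%, lie below the 4 vehicle libraries, at 0.336% to 7.57%, and vehicle 4 is the highest of all.

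Over the whole series 60.0% of the immunoglobulin counts came from the vehicle libraries, 23.7% from palbociclib, 14.1% from both drugs and 2.23% from rapamycin. Without vehicle 4 the order changed: palbociclib then gave 39.6%, rapamycin 3.74%, both drugs 23.6% and the vehicle 33.0%. Constant genes held 69.2% of them, variable genes 27.6%, and Igkc and Ighm alone 46.7%. Per length (as TPM, which scales counts by transcript length), the summed heavy variable genes came to 0.671, 0.728, 0.885 and 0.919 of the summed heavy constant genes with palbociclib, 0.562, 0.531, 0.818 and 0.909 with rapamycin, 1.17, 0.412, 0.969 and 0.992 with both drugs, and 0.714, 0.863, 0.719 and 0.799 with the vehicle. For the light chains this ratio ran from 0.753 to 1.16 over the 16 libraries. The groups overlapped in both ratios, and the lowest heavy chain ratio, 0.412, came from library 2 with both drugs, which had 20 heavy variable counts.

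A filter on low counts left 15308 genes for testing, among them 91 of the 149: 29 heavy, 46 kappa and 3 lambda variable genes and all 13 others. The remaining 58, all variable genes, did not pass. A gene can pass through the libraries where it is high, so the number and the median of the 91 are descriptions and not support for a difference. With edgeR's quasi-likelihood F test and Benjamini-Hochberg adjustment over all 15308 genes, none of the 91 passed an adjusted p of 0.05 in any comparison.

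For palbociclib against vehicle, 0 of 91 were called and 0 of all genes (0% called). At an unadjusted p below 0.05 there were 31 of the 91, 28 of them lower and 3 higher with palbociclib, where 9.51% of all genes were below it. The fitted change was below 0 for 69 of 91, against 52.2% of all genes, and the median log2 fold change was -1.98, against -0.03 over all genes. Without vehicle 4 that median was 1.40, with 36 of 91 below 0 against 49.9% of all genes. At an unadjusted p below 0.05, 9 were then lower and 24 higher, against 10.3% of all genes, so the direction rested on 1 library. Without palbociclib 3 the median was -3.22.

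For rapamycin against vehicle, 0 of 91 were called, and 1 of all genes (0.00653%) was. The unadjusted p was below 0.05 for 76 of the 91, against 7.65% of all genes. The fitted change was below 0 for all 91, against 51.0% of all genes, with a median log2 fold change of -7.02 against -0.01 over all genes. Without vehicle 4 the median was -2.66 and 67 of 91 were below 0, against 49% of all genes. In that fit 30 were lower at an unadjusted p below 0.05, against 7.44% of all genes.

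For both drugs against vehicle, 0 of 91 and 0 of all genes (0%) were called, the unadjusted p was below 0.05 for 50 of the 91 (48 lower and 2 higher with both drugs) against 10.5% of all genes, and 79 of 91 were below 0 against 51.6%. The median log2 fold change was -4.86 against -0.02 over all genes. Without vehicle 4 it was -0.63, and 52 of 91 were below 0 against 50.5% of all genes. In that fit 22 were lower and 14 higher at an unadjusted p below 0.05, against 11.6% of all genes. These 3 comparisons share the vehicle libraries, so their values are set side by side and are not independent.

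DESeq2, another count test, did pass some of the same 91 genes: 1 for palbociclib against vehicle (0.75% of all genes called), 20 for rapamycin against vehicle (0.565%) and 21 for both drugs against vehicle (1.28%), all of them lower with the drug. By edgeR none of these was called.

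Between the treated groups, both drugs against palbociclib alone gave 0 calls among the 91 and 0 among all genes (0%), with 33 of the 91 at an unadjusted p below 0.05 against 2.85% of all genes. There, 66 of 91 were below 0 against 51.0%, and the median log2 fold change was -2.22 against -0.01 over all genes. That median was -1.14 without palbociclib 1, and -3.89 and -3.68 without library 3 and library 4 with both drugs. Both drugs against rapamycin alone gave 0 of 91 and 5 of all genes (0.0327%), with 26 of the 91 at an unadjusted p below 0.05 against 9.79%. Here 33 of 91 were below 0 against 51.9%, and the median log2 fold change was 2.33 against -0.02. Without library 3 with both drugs that median was -0.53, so its direction rested on 1 library. It was 1.18 without rapamycin 1, and 1.01 and 0.18 without library 1 and library 4 with both drugs.

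The interaction of the drugs, which asks whether both together differ from the sum of each alone, gave 0 calls among the 91 and 0 among all genes (0%). The unadjusted p was below 0.05 for 27 of the 91 against 5.67% of all genes, and the median log2 interaction was 4.05 against 0.01. It was 0.87 without vehicle 4. In that fit 13 were lower and 16 higher at an unadjusted p below 0.05, where 5.79% of all genes were below it. With vehicle 4 these were 1 and 26. Without library 3 or library 4 with both drugs the median was 2.55 or 2.69.

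Among the heavy chain constant genes Ighm, the first isotype made, had the most counts. It had 3466, 127, 6766 and 3801 CPM with palbociclib, 25.3, 304, 779 and 75.5 CPM with rapamycin, 1082, 11.8, 4976 and 2957 CPM with both drugs, and 861, 91.4, 2543 and 10987 CPM with the vehicle. All groups overlapped. The fitted log2 fold change was -0.03 ± 1.38 (standard error) for palbociclib, -3.61 ± 1.53 for rapamycin and -0.68 ± 1.39 for both drugs, each against vehicle. The edgeR adjusted p was 0.997, 0.608 and 0.926 in that order. Without vehicle 4 the fitted change was above 0 for palbociclib, at 1.61, and for both drugs, at 0.96, and it was -1.98 for rapamycin.

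As a share of heavy constant TPM, Ighm made up 66.7%, 76.5%, 70.8% and 61.7% with palbociclib, 76.7%, 75.7%, 99.8% and 51.8% with rapamycin, 51.1%, 76.1%, 87.2% and 89.0% with both drugs, and 86.8%, 1.76%, 42.2% and 25.1% with the vehicle. IgM was the leading isotype in all 12 libraries of treated mice, and in vehicle 1 and 3. The other 2 vehicle libraries were led by IgG, and vehicle 2 held almost no IgM.

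The 4 IgG genes encode the secondary isotypes of long-lived responses. Together they made up 0.455%, 17.9%, 22.9% and 24.1% of heavy constant TPM with palbociclib, 0%, 1.01%, 0.0710% and 25.9% with rapamycin, 0.152%, 0.604%, 0.301% and 2.98% with both drugs, and 0.969%, 73.7%, 26.8% and 58.1% with the vehicle. The groups overlapped, mainly through vehicle 1, which had little IgG. The 4 libraries with both drugs were all under 3%. The 25.9% of rapamycin 4 and the 17.9% of palbociclib 2 rested on fewer counts than most, with Ighm at 955 and 1442 counts there.

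The IgG subclasses differed from library to library. Ighg2b had 4.63, 1.94, 22.4 and 220 CPM with palbociclib, 0, 2.08, 0.160 and 10.6 CPM with rapamycin, 1.35, 0.0681, 3.50 and 72.0 CPM with both drugs, and 1.98, 1488, 775 and 5278 CPM with the vehicle. Ighg2c, the form of IgG2a that C57BL/6 mice carry, had 8.73, 8.65, 889 and 31.3 CPM with palbociclib, 0, 0.818, 0 and 7.66 CPM with rapamycin, 1.03, 0, 0.617 and 0.727 CPM with both drugs, and 4.56, 1203, 5.25 and 6321 CPM with the vehicle. Vehicle 2 and 4 carried both genes, vehicle 3 Ighg2b with hardly any Ighg2c, and palbociclib 3 the reverse.

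Ighg2c was among the 3 immunoglobulin genes of smallest p for both drugs against vehicle, with a log2 fold change of -11.65 ± 2.79 and an edgeR adjusted p of 0.218, which did not pass. Ighg1, the IgG of responses to protein antigens, had 3.21, 9.35, 634 and 815 CPM with palbociclib, 0, 0, 0 and 7.82 CPM with rapamycin, 0, 0, 8.02 and 0.273 CPM with both drugs, and 0.861, 0.433, 15.0 and 6605 CPM with the vehicle. Vehicle 4 held 80.0% of all Ighg1 counts. Ighg3, typical of responses to carbohydrates, came almost wholly from vehicle 3, with 379 CPM and 91.3% of its counts, and its next highest value was 39.1 CPM in palbociclib 3.

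Igha encodes IgA, the isotype of mucosal secretions. It had 1149, 4.41, 436 and 635 CPM with palbociclib, 0.604, 47.0, 0.239 and 5.53 CPM with rapamycin, 749, 0.613, 507 and 185 CPM with both drugs, and 84.8, 884, 1345 and 3823 CPM with the vehicle. All 4 rapamycin libraries lay below all 4 vehicle libraries, and the other groups overlapped the vehicle. The log2 fold change of rapamycin against vehicle was -6.84 ± 1.96, with an edgeR adjusted p of 0.42, though DESeq2 called it, against -1.46 ± 1.55 for palbociclib (adjusted p = 0.815) and -2.09 ± 1.58 for both drugs (adjusted p = 0.711). Without vehicle 4 these were -5.85 for rapamycin, -0.47 for palbociclib and -1.10 for both drugs.

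IgA made up 30.6%, 3.73%, 6.27% and 14.2% of heavy constant TPM with palbociclib, 2.72%, 16.7%, 0.0420% and 5.53% with rapamycin, 48.6%, 5.82%, 12.2% and 7.65% with both drugs, and 11.8%, 24.5%, 30.8% and 12.2% with the vehicle. The highest share was in library 1 with both drugs, where IgM and IgA together were nearly all of the heavy chain RNA.

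Ighd encodes IgD, which naive B cells carry beside IgM. It had 1502 CPM in vehicle 4 and 137 CPM in palbociclib 1, and 0.399 to 31.1 CPM in the other 14 libraries. Vehicle 4 held 81.0% of its counts. Ighe, the constant gene of the rarest isotype, had 6257 counts in vehicle 4, which was 689 CPM or 1.75% of heavy constant TPM. In the other 15 libraries it had 0 to 25 counts. A count of 0 allows up to 3 counts, which is 0.194 to 0.330 CPM depending on the library.

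**Figure D2:**
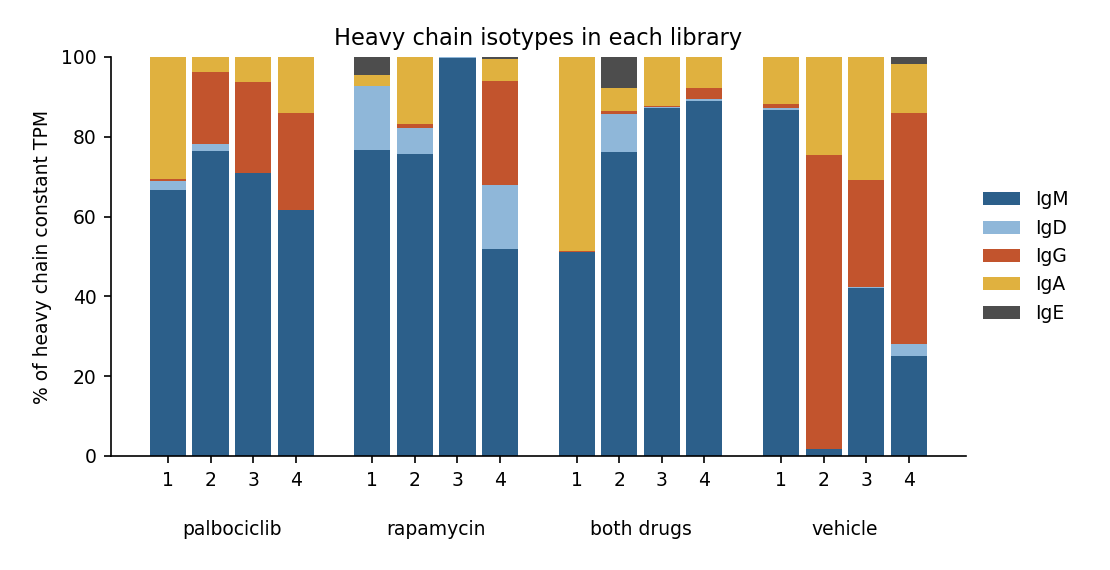
Isotype shares of the summed TPM of the 8 heavy chain constant genes, in percent, 1 bar per library, with the 4 IgG genes summed. IgM is the largest block in all 12 libraries of treated mice, while IgG is the largest in vehicle 2, at 73.7%, and vehicle 4, at 58.1%. The bars of palbociclib 2, rapamycin 1, rapamycin 4 and library 2 with both drugs rest on few counts.

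The form of Ighm could be estimated from the files, because the deposited counts and TPM of a gene together imply the transcript length that RSEM used. Over 303 genes with a single transcript, 95.7% to 96.0% of the implied lengths fell within 5% of the annotated ones in each library. The annotated secreted transcript of Ighm has 1493 nucleotides and the membrane transcript 1698. The membrane form came to 6.70%, 17.2%, 0.700% and 0.778% of Ighm with palbociclib, 56.0%, 27.3%, 5.85% and 41.7% with rapamycin, 0.778%, 55.7%, 1.27% and 0.993% with both drugs, and 4.38%, 34.7%, 3.27% and 12.7% with the vehicle.

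The secreted form thus led in 14 of the 16 libraries. The estimate was highest in libraries with little Ighm: rapamycin 1 with 377 Ighm counts, library 2 with both drugs with 174, rapamycin 4 with 955 and vehicle 2 with 1055. All 4 rapamycin libraries were at or above 5.85%, but the groups overlapped. The implied length of Igha, 1098 to 1112 nucleotides, was near its secreted transcript of 1100 in all 16 libraries and far from its membrane transcript of 2540. Ighd, with an annotated membrane transcript of 1806 nucleotides and a secreted one of 802, was near the membrane length in 13 libraries. The exceptions were vehicle 2, vehicle 3 and rapamycin 4, with implied lengths of 1090, 1555 and 1740 nucleotides on 18, 188 and 329 counts.

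The kappa constant gene Igkc had more counts than any other immunoglobulin gene. It had 2192, 135, 4785 and 3048 CPM with palbociclib, 10.8, 234, 579 and 79.2 CPM with rapamycin, 1026, 4.42, 3186 and 1889 CPM with both drugs, and 852, 1562, 5919 and 20810 CPM with the vehicle. The 4 rapamycin libraries were all below the vehicle libraries, and the other groups overlapped them. The log2 fold changes against vehicle were -1.52 ± 1.35 for palbociclib, -5.01 ± 1.56 for rapamycin and -2.25 ± 1.38 for both drugs, and none passed (edgeR adjusted p = 0.775, 0.497 and 0.622). DESeq2 called the difference with rapamycin. Without vehicle 4 the log2 fold changes were -0.13 for palbociclib, -3.62 for rapamycin and -0.86 for both drugs.

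Kappa was the larger part of the light chains throughout. Igkc made up 58.8%, 95.6%, 99.1% and 88.5% of light constant TPM with palbociclib, 58.4%, 89.5%, 95.5% and 77.8% with rapamycin, 99.2%, 54.4%, 98.4% and 88.0% with both drugs, and 84.3%, 99.3%, 98.5% and 84.5% with the vehicle. The groups overlapped. Of the libraries near 60% or below, only palbociclib 1 had many counts, and there Iglc1, the constant gene joined to Iglv1, made up 38.2% of light constant TPM.

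Iglc1 had 1195, 0.353, 6.78 and 317 CPM with palbociclib, 1.81, 4.54, 2.15 and 4.03 CPM with rapamycin, 0.396, 0, 1.85 and 208 CPM with both drugs, and 112, 2.25, 9.72 and 2118 CPM with the vehicle. Its variable partner Iglv1 had 645, 1.68, 31.9 and 263 CPM with palbociclib, 2.82, 2.75, 1.44 and 4.27 CPM with rapamycin, 3.16, 0.0681, 5.14 and 159 CPM with both drugs, and 72.4, 37.3, 39.2 and 1792 CPM with the vehicle. The 5 libraries with over 100 CPM of Iglc1, palbociclib 1 and 4, library 4 with both drugs and vehicle 1 and 4, also had the 5 highest values of Iglv1. The groups overlapped in Iglc1. In Iglv1 all 4 rapamycin libraries lay below all 4 vehicle libraries, while palbociclib and both drugs overlapped the vehicle; no difference in Iglv1 passed (edgeR adjusted p = 0.42 for rapamycin against vehicle).

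Iglc2 and Iglc3, whose coding sequences are 95.9% identical, were highest in vehicle 4, at 764 and 416 CPM. In the other 15 libraries they had 1.68 to 56.3 and 0.408 to 43.8 CPM. Iglv2 is 96.3% identical to Iglv1 and had 257 CPM in vehicle 4 and 19.7 CPM in library 3 with both drugs, and at most 1.78 CPM elsewhere. Iglv3 had 34.7 CPM in vehicle 4 and at most 4.27 CPM elsewhere. Estimated counts divide reads between such copies, so these values are uncertain as single genes.

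Jchain encodes the joining chain that links IgM and IgA into polymers. It had 493, 60.3, 623 and 400 CPM with palbociclib, 0.0671, 45.6, 126 and 2.45 CPM with rapamycin, 190, 0.0681, 444 and 241 CPM with both drugs, and 69.8, 254, 912 and 1733 CPM with the vehicle. The groups overlapped, and rapamycin 1 and library 2 with both drugs had almost no Jchain. The log2 fold change was -4.09 ± 1.62 for rapamycin against vehicle, with an edgeR adjusted p of 0.568, and -0.91 ± 1.44 and -1.76 ± 1.47 for palbociclib and for both drugs. Without vehicle 4 it was -3.24 for rapamycin, -0.06 for palbociclib and -0.91 for both drugs.

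The variable genes were carried by few libraries each. Of the 136, 106 had more than 50% of their counts in a single library and 34 more than 90%. Vehicle 4 was the highest library for 76 of them, vehicle 3 for 17 and palbociclib 3 for 14. Only Iglv1 had a count in all 16 libraries, and all 136 were above 0 only in vehicle 4. In all 4 libraries of a group, 5 of the 136 were at 0 with palbociclib, 15 with rapamycin, 23 with both drugs and 0 with the vehicle. These numbers follow in part from the choice of genes by summed count, because only 102 of the 136 would have reached 100 counts without vehicle 4. They are therefore descriptions and not support for a difference between groups.

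Within a library the spread over genes varied widely. The leading heavy variable gene held 36.8%, 10.4%, 12.7% and 25.8% of heavy variable counts with palbociclib, 30.9%, 57.5%, 58.1% and 8.33% with rapamycin, 37.4%, 40.0%, 36.8% and 26.2% with both drugs, and 92.0%, 48.0%, 45.9% and 7.85% with the vehicle. The 40.0% of library 2 with both drugs came from 20 counts, with a 95% Wilson interval of 21.9% to 61.3%, and the 30.9% of rapamycin 1 from 55 counts, 20.3% to 44.0%. All groups overlapped.

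The inverse Simpson number, the count of equally used genes that would give the same evenness, was 5.01, 16.3, 12.8 and 7.32 for heavy variable genes with palbociclib, 4.52, 2.93, 2.06 and 24.0 with rapamycin, 3.62, 3.70, 4.86 and 8.29 with both drugs, and 1.18, 2.97, 4.28 and 25.1 with the vehicle. For light variable genes it was 3.89, 5.83, 16.1 and 12.0 with palbociclib, 8.69, 2.27, 2.12 and 22.3 with rapamycin, 3.60, 6.25, 5.17 and 6.42 with both drugs, and 1.35, 3.12, 7.35 and 25.3 with the vehicle. Vehicle 4 and rapamycin 4, with 7.57% and 0.0323% of their counts on immunoglobulin, were the most even libraries for both chains, and vehicle 1 was the least even for both.

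Drawn down to 100 counts, a library would hold 15.5, 25.0, 18.3 and 13.7 different heavy variable genes with palbociclib. It would hold 20.7, 4.70 and 30.9 in rapamycin 2, 3 and 4, and 4.76, 11.1 and 14.9 in libraries 1, 3 and 4 with both drugs, since rapamycin 1 and library 2 with both drugs had fewer than 100 heavy variable counts. It would hold 5.79, 6.34, 18.1 and 33.8 with the vehicle. Vehicle 4 and rapamycin 4 again had the most, and rapamycin 3 and library 1 with both drugs the fewest.

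**Figure D3:**
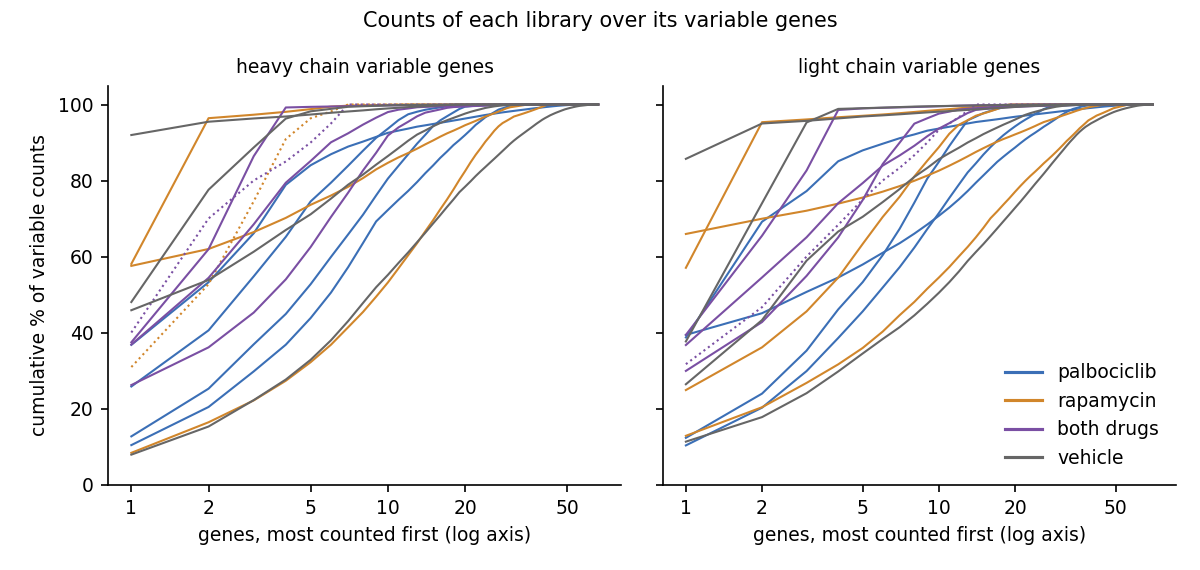
Cumulative percent of the variable counts of a library, with its genes in order of count on a log axis, for heavy chains (left) and light chains (right); 1 line per library, coloured by group, dotted where the library had fewer than 100 such counts. In vehicle 1 a single gene holds 92.0% of the heavy and another 85.7% of the light counts, while the slowest rising lines are vehicle 4 and rapamycin 4.

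In several libraries 1 heavy and 1 light gene led together. Vehicle 1 was led by Ighv6-3 with 1603 of 1743 heavy counts and by Igkv8-30 with 7748 of 9041 light counts, or 92.0% and 85.7%. Rapamycin 3 was led by Ighv11-2 and Ighv1-39 with 58.1% and 38.3% of heavy counts, and by Igkv4-58 and Igkv14-126 with 57.0% and 38.3% of light counts. Vehicle 2 was led by Ighv5-17 and Ighv1-81 with 48.0% and 29.6%, and by Igkv5-43 and Igkv6-23 with 37.6% and 36.4%.

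The first library with both drugs was led by Ighv1-55 and Igkv8-27, with 37.4% and 39.4%, and palbociclib 1 by Ighv1-22 and Igkv2-137, with 36.8% and 38.7%. Palbociclib 3 and 4 were led by Ighv1-50 and Ighv1-59, with 12.7% and 25.8%. The leading light gene was Igkv12-44 with 39.4% in palbociclib 2, Igkv12-46 with 12.3% in palbociclib 4, Igkv8-24 with 12.8% in rapamycin 4, Igkv6-13 with 26.4% in vehicle 3 and Iglv1 in rapamycin 1 and vehicle 4. Rapamycin 4 and vehicle 4 were led by Ighv1-26 and Ighv1-64, with only 8.33% and 7.85% of heavy counts.

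Ighv11-2, printed above, was the leading heavy gene in palbociclib 2, rapamycin 2 and 3, libraries 3 and 4 with both drugs, and vehicle 3. The lead in palbociclib 2 was slight, with 31 of 299 heavy counts and the next gene at 30. In palbociclib 3 Ighv11-2 came just behind Ighv1-50, with 2290 against 2310 counts. In mice Ighv11-2 is known for pairing with Igkv14-126 in B-1a cells, an innate-like B lineage, in receptors that bind phosphatidylcholine. Ighv11-2 had 165, 31, 2290 and 8 counts with palbociclib, 0, 401, 1145 and 0 with rapamycin, 0, 1, 4621 and 2225 with both drugs, and 1, 0, 7379 and 866 with the vehicle. Igkv14-126 had 236, 49, 3197 and 2525 counts with palbociclib, 2, 1314, 1794 and 2 with rapamycin, 1, 0, 8627 and 5165 with both drugs, and 1, 2, 8439 and 1612 with the vehicle.

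Both genes were therefore present or absent together, in some libraries of every group. The exception was palbociclib 4, which had many counts of Igkv14-126 and only 8 of Ighv11-2. In the libraries led by Ighv11-2 with over 200 heavy counts, it held 10.4% of heavy variable counts in palbociclib 2, 57.5% and 58.1% in rapamycin 2 and 3, 36.8% and 26.2% in libraries 3 and 4 with both drugs, and 45.9% in vehicle 3. Igkv14-126 held 5.61% of light variable counts in palbociclib 2, 65.9% and 38.3% in rapamycin 2 and 3, 36.7% and 29.9% in libraries 3 and 4 with both drugs, and 15.6% in vehicle 3. In vehicle 4, the library with the most immunoglobulin, their shares were 1.25% and 1.12%.

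No group difference was called for either gene. For Ighv11-2 the log2 fold change against vehicle was -1.14 ± 2.24 for palbociclib, -2.25 ± 2.31 for rapamycin and 0.24 ± 2.21 for both drugs, and for Igkv14-126 it was -0.25 ± 2.14, -1.59 ± 2.20 and 0.90 ± 2.16. The edgeR adjusted p of these 6 values ran from 0.912 to 0.989. The coding sequence of Ighv11-2 is at most 76.2% identical to that of another of the 136 variable genes and that of Igkv14-126 at most 91.5%, so sharing of reads with another listed gene is less likely for Ighv11-2 than for most. The median identity to the closest other listed gene was 92.9%, and 50 of the 136 had one at 95% or above.

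**Figure D4:**
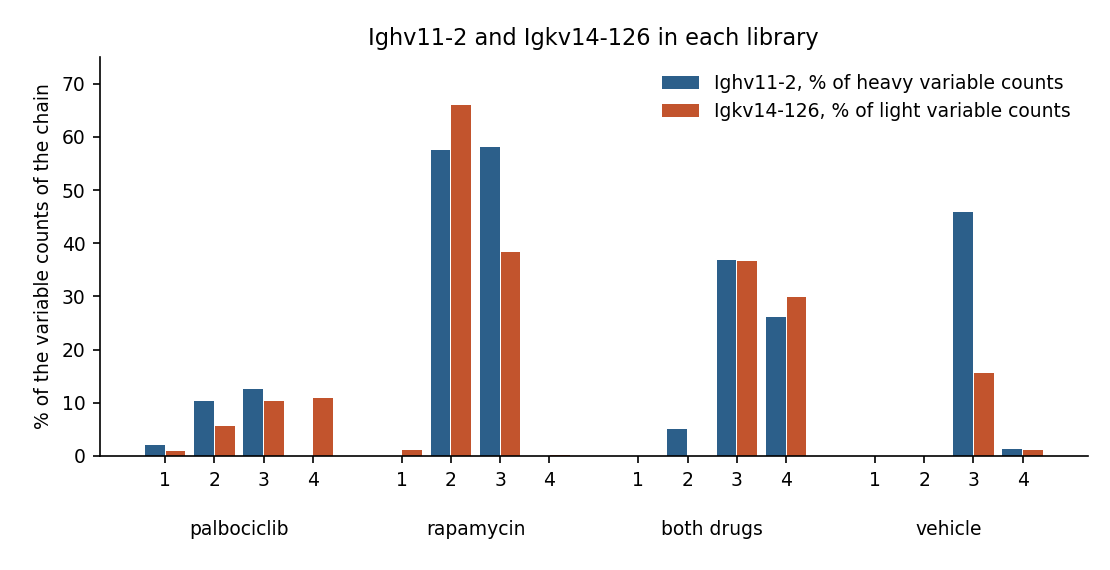
Ighv11-2 as percent of heavy variable counts and Igkv14-126 as percent of light variable counts, 1 pair of bars per library. Both are tall in rapamycin 2 and 3, libraries 3 and 4 with both drugs and vehicle 3, and both are at 1.25% or below in vehicle 1, 2 and 4; palbociclib 4 has only Igkv14-126.

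The other variable genes with the most counts were each tied to a few libraries. Ighv5-17 had 464 and 385 CPM in vehicle 2 and 4 and 65.8 CPM in library 4 with both drugs, and under 1 CPM elsewhere. Ighv1-81 had 93.0, 139 and 175 CPM in palbociclib 1, 3 and 4, 16.6 CPM in library 4 with both drugs, 286 and 190 CPM in vehicle 2 and 4, and at most 6.09 CPM elsewhere. Ighv6-3 was high in palbociclib 3 and 4 with 151 and 182 CPM, in library 3 with both drugs with 226 CPM, and in vehicle 1, 3 and 4 with 138, 83.0 and 78.6 CPM.

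Igkv6-23 had at most 10.2 CPM with palbociclib and at most 0.892 CPM with rapamycin. It had 0, 1.29, 256 and 202 CPM with both drugs and 0.861, 381, 591 and 442 CPM with the vehicle. It was 1 of the 3 genes of smallest p for both drugs against rapamycin alone, at 7.55 ± 2.11 on the log2 scale (edgeR adjusted p = 0.265), and for the interaction, at 14.5 ± 2.89 (edgeR adjusted p = 0.284), and passed in neither. Igkv6-13 had 923 CPM and 96.6% of its counts in vehicle 3, 46.0 CPM in vehicle 4, at most 3.29 CPM with palbociclib or rapamycin and no count with both drugs.

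For the comparisons with the vehicle the smallest p-values belonged to genes high in 2 vehicle libraries. Igkv8-30 had 1.42, 1.41, 0 and 6.40 CPM with palbociclib, 0, 0.149, 0 and 1.42 CPM with rapamycin, 0, 0.0681, 0.514 and 0.364 CPM with both drugs, and 667, 0.433, 0 and 752 CPM with the vehicle. Igkv5-43 was at most 4.99 CPM in the 12 libraries of treated mice and had 0.775, 394, 0.454 and 256 CPM with the vehicle. In both genes 2 vehicle libraries were high and 2 lay within the range of the treated ones.

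Their log2 fold changes against vehicle ran from -6.83 to -11.59, and their edgeR adjusted p from 0.218 to 0.399. Igkv5-43 and Igkv5-45 are 98.6% identical in coding sequence and uncertain as single genes. Ighv1-53 for palbociclib and Igkv4-59 for rapamycin were the next, at -7.66 ± 2.11 and -11.4 ± 2.71 and adjusted p of 0.3 and 0.399. The value of Ighv1-53 was -4.52 without vehicle 4. Ighv1-53 had 27.8 and 316 CPM in vehicle 3 and 4 and at most 1.60 CPM elsewhere, and Igkv4-59 had 268 and 53.2 CPM there and at most 20.8 CPM elsewhere.

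Between treated groups the same held. Igkv10-94, with 207 and 72.3 CPM in palbociclib 3 and 4, Ighv1-22, with 268 and 60.6 CPM in palbociclib 1 and 4, and Igkv4-50, with 47.6 and 157 CPM in palbociclib 3 and 4, had the smallest p for both drugs against palbociclib alone, each with an edgeR adjusted p of 1. Igkv8-27, with 298 and 429 CPM in libraries 1 and 3 with both drugs, and Ighv7-1, with 182 and 70.7 CPM in libraries 3 and 4 with both drugs, had adjusted p of 0.225 and 0.291 for both drugs against rapamycin alone. Ighv1-34 had 110 CPM in vehicle 4, and its interaction had an adjusted p of 0.471.

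RNA of the molecules that work with immunoglobulin was compared over the same libraries. Of 11 partners and co-receptors of the B cell receptor, all 11 were tested and 0 passed in any comparison, with 8, 10 and 8 fitted below 0 for palbociclib, rapamycin and both drugs against vehicle. Cd79a, the signalling chain that every surface immunoglobulin needs, had 202, 8.38, 18.6 and 11.5 CPM with palbociclib, 8.79, 68.6, 30.7 and 42.0 CPM with rapamycin, 10.8, 3.95, 25.6 and 19.8 CPM with both drugs, and 44.9, 15.2, 68.2 and 2172 CPM with the vehicle. The groups overlapped, with vehicle 4 and palbociclib 1 the highest.

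Vehicle 4 and palbociclib 1 also had the most Ighd. Palbociclib 3, with a higher immunoglobulin share than any library but vehicle 4, had 18.6 CPM of Cd79a, and rapamycin 3, with a far lower share, had 30.7 CPM. Mature B cell markers, 11 of 12 tested, had 0 passing and all 11 fitted below 0 in each of the 3 comparisons with the vehicle, and vehicle 4 held most of their summed CPM. Their summed level was 83.0 to 569 CPM with palbociclib, 84.2 to 269 with rapamycin, 79.4 to 243 with both drugs and 121 to 4195 with the vehicle. Pax5, which defines the B lineage, was at 0 in 10 of the 16 libraries and had 20.8 CPM in vehicle 4. Of 12 T and NK cell markers 10 were tested and 0 passed, with 9, 9 and 10 fitted below 0 against the vehicle, and of 12 neutrophil granule genes all 12 were tested and 0 passed, with 2, 5 and 6 below 0. All 4 markers of the gate were tested and 0 passed.

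Of 14 plasma cell markers 12 were tested and 0 passed, with 10, 12 and 10 fitted below 0 in the 3 comparisons with the vehicle. Their summed level was 960 to 1407 CPM with palbociclib, 699 to 968 with rapamycin, 971 to 1534 with both drugs and 803 to 2017 with the vehicle. Mzb1, a chaperone for IgM in the endoplasmic reticulum, had 27.5, 4.41, 25.2 and 17.4 CPM with palbociclib, 0.0671, 2.16, 1.68 and 1.11 CPM with rapamycin, 1.82, 0, 7.50 and 9.09 CPM with both drugs, and 3.44, 19.5, 16.1 and 239 CPM with the vehicle. All 4 rapamycin libraries were below all 4 vehicle libraries and below all 4 palbociclib libraries, with a log2 fold change against vehicle of -5.79 ± 1.42 and an edgeR adjusted p of 0.399. The order of the libraries holds without vehicle 4. The size of the fold change rests largely on its 239 CPM, against 3.44 to 19.5 CPM in the other vehicle libraries, and no value without it is given.

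Xbp1, the factor that drives antibody secretion and is also made by many other cells, had 395 to 569 CPM with palbociclib, 283 to 448 with rapamycin, 387 to 735 with both drugs and 292 to 597 with the vehicle. Tnfrsf17, which encodes the plasma cell receptor BCMA, was at 1.87 CPM or below throughout and at 0 in 6 libraries. The part of plasma cells and B cells in the immunoglobulin values was not tested.

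**Figure D5:**
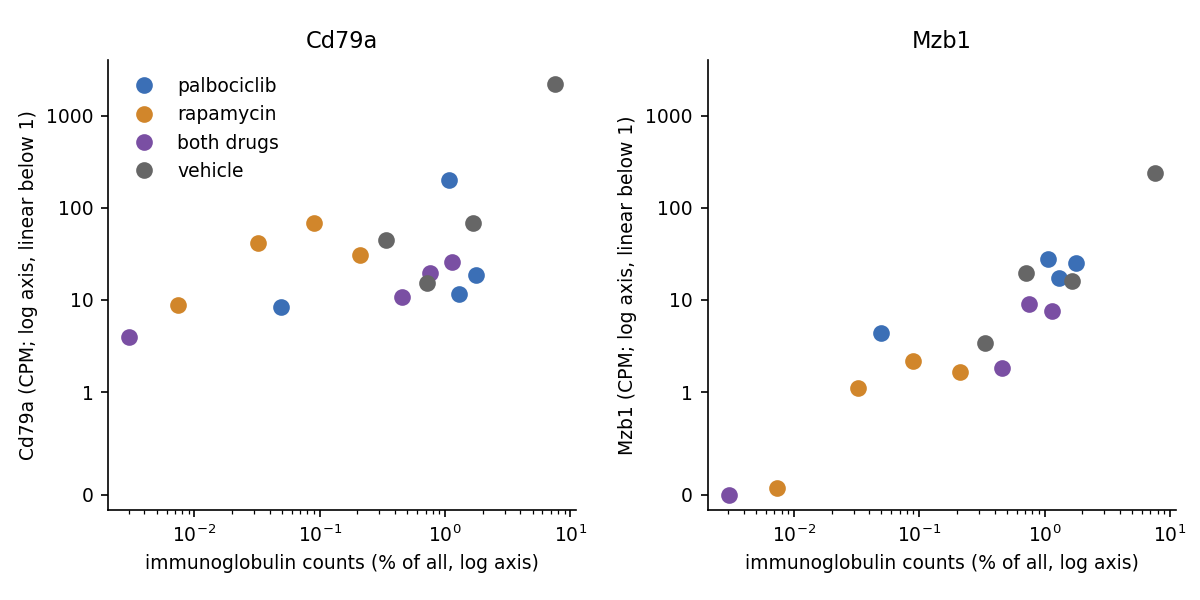
Cd79a (left) and Mzb1 (right) in CPM, on a log axis that is linear below 1, against the immunoglobulin share of counts on a log axis, 1 point per library, coloured by group. Mzb1 is at 2.16 CPM or below in all 4 rapamycin libraries; Cd79a is 2172 CPM in vehicle 4 and 202 CPM in palbociclib 1, and 68.6 CPM or below in the other 14 libraries.

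Markers of B cell precursors were low: 12 genes summed to 28.8 to 192 CPM, 9 were tested and 0 passed. Rag1, which starts the joining of the segments, was at 0 in 12 libraries and at most 0.530 CPM, and Vpreb1, part of the surrogate light chain, had 0.411 to 13.9 CPM. Of 5 genes for switching and hypermutation 4 were tested and 0 passed. Of 12 receptors for immunoglobulin 10 were tested and 0 passed, with 7, 6 and 7 above 0 against the vehicle; the most abundant, Fcer1g, had 99.2 to 538 CPM.

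As a description over the 16 libraries, which share groups and depth, the genes outside the family that followed the summed immunoglobulin CPM most closely by rank were Ctsz (Spearman rho of 0.92), Fut1 (0.91), Slpi (0.90), Cacna1s (0.88), Ifi27l2a (0.87), Mzb1 (0.87), Edem1 (0.86), Creld2 (0.86), Sdf2l1 (0.86) and Cmah (0.84). Mzb1, Edem1 and Creld2 are in the list of plasma cell markers and, with Sdf2l1, act in the folding or removal of proteins in the endoplasmic reticulum. Slpi, a protease inhibitor, had 2550 CPM in vehicle 4 and 45.1 to 421 CPM in the other 15 libraries. Kit ran the other way, with a rho of -0.92: it had 239, 433, 218 and 198 CPM with palbociclib, 587, 394, 379 and 462 CPM with rapamycin, 372, 395, 190 and 264 CPM with both drugs, and 399, 235, 127 and 181 CPM with the vehicle. Kit is a marker of the gate but does not stand for the gate as a whole. The 4 gate markers summed to 1265 CPM in vehicle 4, the highest sum, and to 256 CPM in vehicle 3, the lowest. The part of Kit in the group values was not tested.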

How the data were processed

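Sorted stem cells gave 16 libraries, 4 in each group; the labels' protocols name total RNA and a Clontech kit for low input. The submitters' processing notes list STAR 2.5.3a, RSEM 1.3.0, SAMtools 1.3 and mm10, without an annotation release. Expected counts for each gene were deposited by the authors as whole numbers. A further deposited table holds log2(TPM + 1), from which TPM was recovered by undoing the log2. Whether counting used strand is not given in the sources used here. Estimated counts divide reads between similar genes, and rearranged or hypermutated variable genes may map less well than germline ones.

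Symbols, coordinates and sequences came from GENCODE M21 (GRCm38, which mm10 also denotes), and it named 50376 of 50686 IDs. Groups were taken from the titles. The members and the 9 gene lists were chosen with earlier results of these data known. Counts went into edgeR 4.0.16 (R 4.3.3) with TMM factors, filterByExpr (minimum count 10, minimum total 15), a mean for each group fitted to the 16 libraries (12 residual degrees of freedom), and Benjamini-Hochberg adjustment over 15308 genes at 0.05. Standard errors were derived from the fold change and its F statistic. CPM is TMM-scaled. A fitted fold change against a group with all libraries at 0 depends on the prior count; with such genes at a floor of 3 counts over the group, the median of the 91 genes was -4.65 for both drugs against vehicle and was the same to 2 decimals in the other 4 comparisons of groups.

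Shares, isotypes and the spread over variable genes were described without a test. The first used counts and the isotypes used TPM. Variable genes were drawn down to 100 counts by the exact hypergeometric expectation. Intervals are Wilson intervals at 95% and, like the floor of 3 counts, cover counting error only. Named genes were every constant gene and Jchain, the 4 variable genes of each family with the most counts, the leading variable genes of libraries with at least 200 variable counts, up to 3 genes per comparison and direction or the 3 of smallest p where none passed, the 10 other genes closest by rank, and the leading genes of each list; Ighv1-39, Pax5, Rag1, Vpreb1 and Tnfrsf17 were added after their values were seen. No 2 libraries of a group agreed within sampling noise, since chi-square per degree of freedom was at least 24.1. On simulated counts for rapamycin against vehicle over 14754 genes, this fit recovered 10% of genes changed 2-fold, 50% at 4-fold, 84% at 8-fold and 90% at 16-fold. The changed genes were a random draw from the tested genes above a low level, each with its own spread. These percentages therefore do not measure recovery for the immunoglobulin genes, whose libraries differ far more. Alternatives were DESeq2 1.42.0, limma 3.58.1 with voom or on log2 TPM, other size factors, no filter, other library sizes, a replicate block and each library left out.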

Additional observations from a re-analysis of the deposited data

Results flagged for a closer look

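In 32 of 128 groups of 4 values, 1 library stood apart from its nearest neighbour. Its gap, relative to the range, was past the 95% critical value of Dixon for 4 samples. About 1 in 20 groups of normally distributed values would pass. Many values here lie at or near 0 counts. Where all others of a group are at 0, any count gives a ratio of 1, as for Ighg3 at 0.206 CPM with both drugs. The 32 therefore cannot be set against that rate, and some flagged values lie within the floor of 3 counts. CPM and the immunoglobulin share were compared on the log2 scale.

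Low libraries came first. The immunoglobulin share was 0.0496% in palbociclib 2, against 1.07% to 1.78% in the other 3 palbociclib libraries, and 0.00303% in library 2 with both drugs, against 0.454% to 1.15%. Palbociclib 2 also had 127 CPM of Ighm, against 3466 to 6766, and 1.68 CPM of Ighv1-81, against 93.0 to 175. Library 2 with both drugs had 0.0681 CPM of Jchain, against 190 to 444. Rapamycin 1 was low in Iglc2, at 1.68 CPM, vehicle 2 in Ighv6-3, at 1.13 CPM, and vehicle 1 in Igkv6-23, at 0.861 CPM.

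Among shares, IgG made up 25.9% of heavy constant TPM in rapamycin 4 and 2.98% in library 4 with both drugs, IgA 48.6% in library 1 with both drugs, and the membrane form 55.7% of Ighm in library 2 with both drugs, each above the other 3 of its group.

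High single genes with palbociclib were Ighd at 137 CPM, Ighe at 2.23, Igkv6-13 at 3.29 and Iglv2 at 1.69 CPM in library 1, and Ighg3 at 39.1 CPM in library 3. With rapamycin they were Ighv6-3 at 1.14 CPM in library 1, Igkv6-13 at 2.16 CPM in library 2, and Ighg1 at 7.82 and Igkv8-30 at 1.42 CPM in library 4. With both drugs they were Ighe at 1.02 CPM in library 2, Ighg1 at 8.02, Ighg3 at 0.206, Ighv6-3 at 226 and Iglv2 at 19.7 CPM in library 3, and Iglc1 at 208, Ighv5-17 at 65.8 and Ighv1-81 at 16.6 CPM in library 4. With the vehicle they were Ighe at 689, Iglv1 at 1792 and Iglv2 at 257 CPM, all in library 4.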

How the results depend on the processing

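Of all alternatives, DESeq2 moved the number of genes called most: 1, 20 and 21 of the 91 for palbociclib, rapamycin and both drugs against vehicle, 7 and 6 for both drugs against palbociclib and against rapamycin alone, and 4 for the interaction. Of all genes DESeq2 called 0.75%, 0.565% and 1.28% in the comparisons with the vehicle. That share is not given for the others, so the 7, 6 and 4 cannot be set against a background. Without the filter on low counts edgeR called 1 for the interaction, and the share of all genes called in that fit is not given either. Each library left out in turn gave 0 to 0 calls in all 6 comparisons. The median log2 fold change of rapamycin against vehicle was -3.47 with voom, -2.69 on log2(TPM + 1) and -3.51 on log2(TPM + 0.1). That of both drugs against vehicle was -1.81 when only those groups were fitted, and the median interaction was 1.18 with voom and 1.40 on log2(TPM + 0.1). Over the libraries left out, the medians ran from -3.22 to 1.40, -7.53 to -2.66 and -6.69 to -0.63 for palbociclib, rapamycin and both drugs against vehicle, the upper end each time without vehicle 4. They ran from -0.53, without library 3 with both drugs, to 2.35 for both drugs against rapamycin alone, and from 0.87 to 5.66 for the interaction. For Ighm, palbociclib against vehicle gave 0.59 with voom, 0.64 on both TPM scales, 0.37 without palbociclib 2 and -0.54 to 1.61 over all libraries left out; both drugs against vehicle gave -1.42 to 0.96. By TPM in place of counts the mean immunoglobulin share was 2.22% with palbociclib, 0.179% with rapamycin and 1.29% with both drugs. The vehicle mean by TPM is not given here, and these means cannot be set beside the vehicle mean by counts. The cause of these shifts was not tested.

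The labels do not say what a replicate number marks. Deviations of the 24 same-numbered pairs were correlated at -0.21 to 0.35, 7 of them above 0.1, and 8 of 16 libraries were closest to their own number. Pairs of different numbers from different groups covered a similar range, from -0.39 to 0.31. Whether libraries of the same number share more than the number was not tested. With a replicate block 1 of the 91 was called for both drugs against rapamycin alone and 0 elsewhere. The share of all genes called with the block is not given, so this 1 cannot be set against a background. With the block the log2 fold change of Ighm for palbociclib against vehicle was 0.49. Genes with few counts limit rapamycin 1 and library 2 with both drugs most.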
